A study of Homo sapiens with 6 samples.

Results

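Metallothioneins are small, cysteine-rich proteins of the cytosol that bind zinc, copper and, in exposed tissue, cadmium. The human genes lie side by side on the long arm of chromosome 16, and the 8 genes MT1A, MT1E, MT1F, MT1G, MT1H, MT1M, MT1X and MT2A were examined here. They were listed by gene name and selected on their levels in these same sh-NC and sh-LINC01977 libraries. The comparison of their levels between the groups is therefore a description. The calls printed for them below are part of that description and are no test of it. Of the 8 genes, 7 are among the 29153 genes of the deposited table, and MT1H was not analysed here. Of the 13452 genes that entered the test, 6 are metallothionein genes, and MT1M lay below the filter on low values.

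Transcripts were sequenced from HepG2 cells, a human liver cancer line, to ask which genes respond to knockdown of LINC01977, a long noncoding RNA. The 3 sh-NC libraries came from HepG2 cells that carried a control hairpin, and the 3 sh-LINC01977 libraries from HepG2 cells that carried a hairpin against LINC01977, each delivered by lentivirus for 72 h. Both groups therefore share the virus, and infected cells were selected with puromycin. The titles of the knockdown libraries name the hairpin only as sh3. It was taken as the LINC01977 hairpin because the data hold only that group beside the control. Other effects of this hairpin cannot be told apart from the knockdown. The design holds 1 cell line, and the labels do not say whether the 3 libraries of a group came from separate cultures, so p-values measure only the spread between these libraries, which may be technical.

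Metallothioneins hold spare zinc and copper in liver cells and release them to other proteins. Free zinc activates the transcription factor MTF1, which binds metal response elements in the metallothionein promoters. In liver, glucocorticoids and interleukin 6 also induce these genes, so their transcripts are widely read as a sign of metal load and of acute phase signaling.

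The total counts were between 49929024 and 60441515 per library. The targeted gene LINC01977 was close to undetected, with counts of 4, 0 and 16 in sh-NC and 0, 0 and 4 in sh-LINC01977, so its level gives little check of the labels. All 9 hepatocyte markers were detected in these liver cells, and they moved with the group. Their summed FPKM was 4444 to 4813 in sh-NC and 3128 to 3195 in sh-LINC01977, and 7 of 9 fell, 77.8% where 8.07% of all tested genes passed as lower, with ALB at a log2 change of -1.09. The summed FPKM of 4 stromal markers was 2.88 to 3.96 and 5.47 to 7.57 in the same order, with PDGFRB, 1 of the 2 tested, higher by the test and COL3A1 at 0 in 5 of 6 libraries. COL1A1 made most of that sum, at mean FPKM of 2.72 and 4.72, and did not pass by edgeR (adjusted p 0.0504). Immune markers summed to 10.5 to 13.1 and 14.2 to 16.5 over 3 genes, with PTPRC at 0 in 5 of 6 libraries, and neither of the 2 tested passed. CD68 made most of that sum, at mean FPKM of 10.45 and 14.82, while CD14 went the other way, at 0.978 and 0.774. Endothelial markers summed to 0.266 to 0.441 and 0.220 to 0.315 over 3 genes, all below the filter and not tested. The part of these shifts in the metallothionein values was not tested, and in bulk RNA fewer cells with a transcript and less of it per cell cannot be told apart.

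The cluster spans 76.0 kb of chromosome 16 in GRCh38, from the start of MT2A (ENSG00000125148) at 56608199 to the end of MT1X (ENSG00000187193) at 56684196. MT2A ends at 56609497. From MT2A onwards the genes follow in the order MT1E (ENSG00000169715, 56625475 to 56627112), MT1M (ENSG00000205364, 56632233 to 56633986), MT1A (ENSG00000205362, 56638666 to 56640087), MT1F (ENSG00000198417, 56657694 to 56660698), MT1G (ENSG00000125144, 56666731 to 56668065), MT1H (ENSG00000205358, 56669814 to 56671129) and MT1X (from 56682424). MT1G alone lies on the minus strand. Their coding sequences are near copies of one another, which matters for reading counts, so those of the 5 tested genes with lower mean levels in sh-LINC01977 are given here, 183 bases each without the stop codon, from GENCODE 29 transcripts, with capitals for bases that differ from MT2A.
MT2A: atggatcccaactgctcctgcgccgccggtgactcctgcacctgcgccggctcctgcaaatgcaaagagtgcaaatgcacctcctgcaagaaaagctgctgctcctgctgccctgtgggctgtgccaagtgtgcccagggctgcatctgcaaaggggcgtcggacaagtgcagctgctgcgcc
MT1E: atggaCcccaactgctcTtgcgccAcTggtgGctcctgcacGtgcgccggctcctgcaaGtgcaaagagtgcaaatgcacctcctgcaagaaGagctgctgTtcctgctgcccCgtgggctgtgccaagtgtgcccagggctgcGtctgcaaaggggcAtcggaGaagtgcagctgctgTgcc
MT1X: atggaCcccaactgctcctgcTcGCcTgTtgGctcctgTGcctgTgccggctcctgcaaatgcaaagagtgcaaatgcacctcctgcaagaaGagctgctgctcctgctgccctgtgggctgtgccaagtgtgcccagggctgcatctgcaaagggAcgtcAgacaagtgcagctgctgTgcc
MT1F: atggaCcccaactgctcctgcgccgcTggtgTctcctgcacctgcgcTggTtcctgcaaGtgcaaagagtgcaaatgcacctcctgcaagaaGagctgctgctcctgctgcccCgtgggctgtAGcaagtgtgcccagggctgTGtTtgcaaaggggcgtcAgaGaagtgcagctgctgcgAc
MT1G: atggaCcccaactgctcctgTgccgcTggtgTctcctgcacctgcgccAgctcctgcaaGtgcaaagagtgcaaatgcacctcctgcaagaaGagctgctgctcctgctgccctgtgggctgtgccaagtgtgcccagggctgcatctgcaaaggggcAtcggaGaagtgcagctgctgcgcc
MT1G shared the most bases with MT2A, at 95.1%, with 9 differing. MT1E and MT1X each differed from MT2A at 14 bases and MT1F at 16. Over the 28 pairs of the 8 genes, identity ran from 88.5% to 95.1% with a median of 91.8%. Across whole transcripts the copies were easier to tell apart. Of all stretches of 50 bases, 3.02% in MT2A, 7.10% in MT1E, 1.41% in MT1F and 5.76% in MT1A also occur in a transcript of another gene. The share was 17.4% in MT1G, nearly all of it with other metallothionein genes, and 18.3% in MT1X, where 273 of 341 shared stretches lie in the overlapping gene AC026461.1. The deposited counting of reads in such stretches, and its use of strand, is not given in the sources used here, so the split of reads among these genes is uncertain.

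Levels were compared between genes in FPKM, which scales fragments to transcript length and library size. MT2A, the most widely expressed human metallothionein, led in every library. Its FPKM was 59.9, 63.6 and 50.1 in sh-NC and 53.9, 44.9 and 41.9 in sh-LINC01977, and its mean over all libraries ranked 604 among the listed genes. MT1E, the leading MT1 isoform in these cells, came next at 14.2, 16.3 and 12.2 and at 13.3, 12.8 and 10.4. The order continued with MT1X, at a mean FPKM of 2.50 over the 6 libraries, MT1A at 1.63, MT1G at 0.921 and MT1F at 0.548. The ranges of MT2A, MT1E and MT1X over the libraries did not meet, while those of MT1X and MT1A, of MT1A and MT1G, and of MT1G and MT1F did. MT1M had an FPKM of 0 in 5 libraries and 0.0547 in the third sh-NC library.

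**Figure D1:**
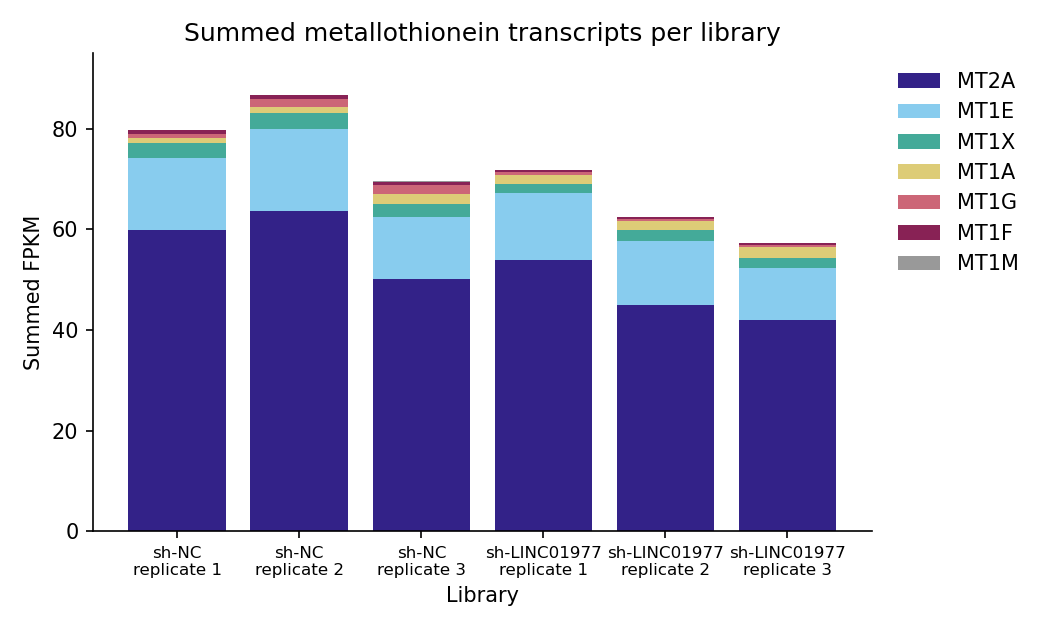
Stacked bars give the FPKM of each metallothionein gene in each of the 6 libraries, from 0. The sums lie between 69.5 and 86.7 in sh-NC and between 57.2 and 71.7 in sh-LINC01977, and MT2A forms 72.0% to 75.2% of every bar.

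The metallothionein transcripts together were lower on average in sh-LINC01977, but their summed FPKM overlapped between the groups. The summed FPKM was 79.7, 86.7 and 69.5 in sh-NC and 71.7, 62.4 and 57.2 in sh-LINC01977, with means of 78.6 ± 8.64 and 63.8 ± 7.36 (SD, n = 3). The third sh-NC library lay below the first sh-LINC01977 library. In CPM, counts scaled to a common library size and composition, the sums were 128.1, 136.3 and 107.8 against 107.5, 94.7 and 84.3, which left the same pair of libraries nearly equal. The difference between the group means of the log2 summed CPM was -0.38. Its standard error, taken from the spread of the libraries without a fitted model, was 0.14. As a share of all counts, these genes took 0.0106% to 0.0133% in sh-NC and 0.00869% to 0.0109% in sh-LINC01977.

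Most of these transcripts were MT2A. MT2A stood at 99.3, 103.5 and 81.4 CPM in sh-NC and at 84.4, 71.4 and 64.6 CPM in sh-LINC01977. The highest sh-LINC01977 library was above the lowest sh-NC library, so the groups overlapped. The fitted level was 1.29-fold lower in sh-LINC01977, a log2 change of -0.37 with a standard error of 0.13. MT1E followed the same course across libraries. It stood at 19.0, 21.5 and 16.1 CPM and at 16.9, 16.4 and 13.0 CPM, overlapping between the groups, with a log2 change of -0.29 and a standard error of 0.15. The FPKM of MT1E per 100 FPKM of MT2A was 23.7, 25.7 and 24.4 in sh-NC and 24.7, 28.4 and 24.8 in sh-LINC01977. The ratio of these genes thus varied little, while both were highest in the second library of sh-NC and lowest in the third library of either group.

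**Figure D2:**
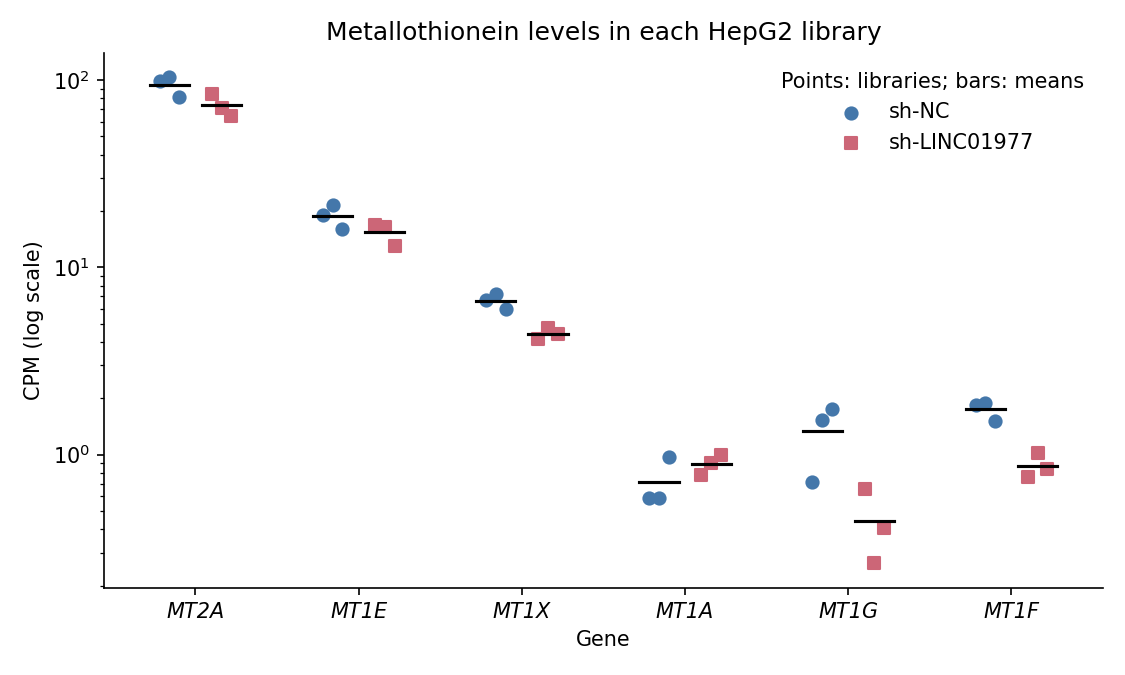
Points are the CPM of each library on a log axis, blue circles for sh-NC and red squares for sh-LINC01977, with bars at the group means and genes ordered by mean FPKM. The groups lie apart for MT1X, MT1G and MT1F, with sh-LINC01977 below, and overlap for MT2A, MT1E and MT1A.

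MT1X, MT1F and MT1G lay lower in every sh-LINC01977 library than in any sh-NC library. MT1X, an MT1 isoform that responds to zinc and cadmium, stood at 6.68, 7.21 and 5.96 CPM in sh-NC and at 4.12, 4.72 and 4.43 CPM in sh-LINC01977. The groups did not overlap, and the fitted level was 1.496-fold lower, a log2 change of -0.58 with a standard error of 0.13. MT1F, an inducible isoform long known from liver, had counts of 100, 93 and 89 and of 42, 62 and 43. In CPM these were 1.84, 1.89 and 1.51 in sh-NC and 0.763, 1.02 and 0.835 in sh-LINC01977, a 1.99-fold lower level with a log2 change of -0.996 and a standard error of 0.22. Within a library MT1F followed MT1X closely. In both groups the second library was highest for either gene. The FPKM of MT1F per 100 FPKM of MT1X was nevertheless 24.5 ± 0.895 in sh-NC and 18.1 ± 1.46 in sh-LINC01977 (SD, n = 3), without overlap, so the difference was wider for MT1F.

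MT1G, an isoform studied in liver cancer cells for its induction by the kinase inhibitor sorafenib, had the widest difference and the widest spread. Its counts were 39, 76 and 103 in sh-NC and 36, 16 and 21 in sh-LINC01977. After scaling these were 0.716, 1.54 and 1.75 CPM and 0.654, 0.263 and 0.408 CPM, so the first library of each group nearly met while the others stood well apart. The fitted level was 3.02-fold lower, a log2 change of -1.60 with a standard error of 0.47. With a library left out the log2 change ran from -1.99, without the first sh-LINC01977 library, to -1.33, without the second. MT1F and MT1G reached the filter, a mean FPKM of 0.5 over the 6 libraries, only through sh-NC. Their means were 0.723 and 1.39 FPKM there and 0.373 and 0.454 FPKM in sh-LINC01977, so their presence among the tested genes already leaned towards a lower level in sh-LINC01977.

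MT1A, an isoform with a low basal level that metals induce, was the exception among the tested genes. It stood at 0.588, 0.588 and 0.968 CPM in sh-NC and at 0.781, 0.904 and 0.991 CPM in sh-LINC01977. The third sh-NC library reached the range of sh-LINC01977, so the groups overlapped. The log2 change was 0.31 with a standard error of 0.29, and without the third sh-NC library it was 0.60. The counts behind these values were 29 to 57 per library. As a share of summed metallothionein FPKM, MT1A took 1.85% ± 0.805 in sh-NC and 2.94% ± 0.670 in sh-LINC01977 (SD, n = 3). MT1F took 0.920% ± 0.0213 and 0.592% ± 0.118, and MT2A 73.6% ± 1.55 and 73.5% ± 1.56. Between the groups the shares of MT1F did not overlap, while those of MT1A and MT2A did.

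MT1M, an isoform whose loss in hepatocellular carcinoma has been studied, had 5 counts in the third sh-NC library and 0 in each of the others. A count of 0 allows up to 3 counts, so no fold is given. Among 12 further metallothionein genes and pseudogenes, MT1P1 and MT1XP1 were in the table and neither was tested. MT1P1 had 3 counts in the second sh-NC library, and MT1XP1 had 1 count in the second sh-LINC01977 library.

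**Figure D3:**
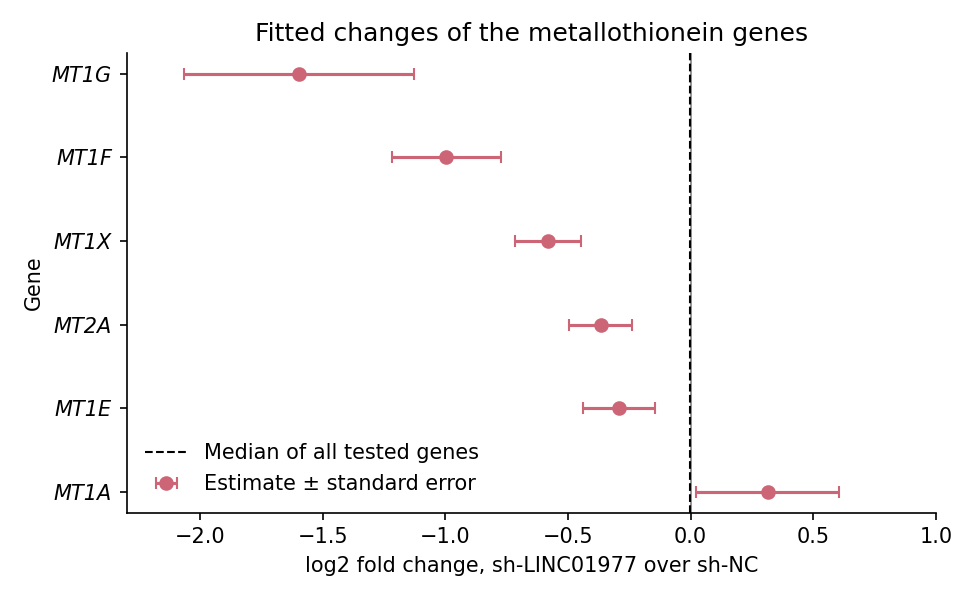
Points give the fitted log2 fold change of each tested metallothionein gene, sh-LINC01977 over sh-NC, with bars of 1 standard error, and the dashed line marks the median of all tested genes. The values run from -1.60 for MT1G to 0.31 for MT1A, with 5 of 6 below 0.

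Among the 6 tested metallothionein genes the median log2 change was -0.47, beside 0.00 over all tested genes. The latter value follows largely from TMM scaling, which takes most genes as unchanged, and was 0.065 with library totals. By edgeR at an adjusted p under 0.05, MT1X and MT1F passed as lower and 0 of 6 as higher, where 8.07% of all tested genes passed as lower and 7.05% as higher (1085 and 948 genes, against 768 and 1455 with library totals as the scaling). At the thresholds of the study, a 2-fold difference with P at most 0.05, MT1G passed as lower and 0 of 6 as higher, where 1.05% and 1.55% of all tested genes did. The CPM of 3 of 6 did not overlap between the groups, all lower, where 18.3% of all tested genes did not overlap in that direction and 18.8% in the other. Since the genes were listed with this contrast known, nothing is read from these counts, nor from the passes in the fits given next. MT1F and MT1G also reached the filter only through sh-NC. MT1X and MT1F passed in 1 of the 6 fits that left out a library, the one without the third sh-NC library. None of the 6 passed without the second sh-NC library or without any 1 of the sh-LINC01977 libraries, and MT1G passed alone without the first sh-NC library.

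Metal response elements mark the promoters through which MTF1 acts. Their core was searched as TGCACNC or TGCGCNC on both strands of the 250 bases before the gene start set in RefSeq promoters of GRCh38.p14. That table held entries for MT1H, MT1X and MT2A. They held 8, 4 and 7 matches, and 24.8% of 35116 promoters held at least 1 match, 1.58% at least 3 and 0.120% at least 5. For MT2A the searched bases begin at 56608334, inside the GENCODE 29 interval of the gene. All motif matches given for MT2A therefore lie within that interval and not before it. Of MT1X, MT1F and MT1G, whose groups did not overlap, only MT1X had an entry. The 204 bases before its first exon in GENCODE 29 are shown, with the 4 matches in capitals. They are chr16:56682220-56682423 on the plus strand.
MT1X promoter: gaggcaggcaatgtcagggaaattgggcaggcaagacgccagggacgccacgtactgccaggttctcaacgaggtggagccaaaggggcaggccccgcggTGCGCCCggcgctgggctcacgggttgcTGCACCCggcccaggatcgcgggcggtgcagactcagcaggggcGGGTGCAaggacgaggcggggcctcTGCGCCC
An AP-1 motif (TGACTCA) occurred once in MT2A and in neither MT1H nor MT1X, and 4.2% of promoters held one. GC boxes (GGGCGG) were found at 2 positions in MT2A, 2 in MT1X and 1 in MT1H, and in 42.6% of promoters. A TATA box (TATAAA) was found in MT2A and MT1X and in 10.7% of promoters. A match is a stretch of letters and not a measured binding site.

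MTF1 itself, the zinc sensor, showed no difference that passed the test. It stood at 22.1, 23.1 and 25.4 CPM in sh-NC and 21.8, 24.8 and 24.0 CPM in sh-LINC01977, with a log2 change of 0.00, a standard error of 0.089 and an adjusted p of 0.997. The direction of so small a value flipped with library totals as the scaling, at 0.06. SLC30A1, the zinc exporter of the plasma membrane and another MTF1 target, stood at 52.6, 58.1 and 61.2 CPM and at 52.4, 50.1 and 52.1 CPM, with a log2 change of -0.15, a standard error of 0.070 and an adjusted p of 0.196. Of 18 tested zinc transporters 4 fell and 0 rose, 22.2% against 15.1% of all tested genes in either direction, with a median log2 change of -0.02. SLC39A5, a zinc importer of liver and pancreas, stood at 33.4, 32.8 and 29.7 CPM in sh-NC and at 19.3, 19.7 and 20.4 CPM in sh-LINC01977, with no overlap, and fell by 0.69 on the log2 scale (SE 0.075, adjusted p 0.00248). SLC39A14, an importer of zinc, iron and manganese that inflammation induces in liver, fell by 0.41 (SE 0.088, adjusted p 0.0253). SLC30A10, which exports manganese rather than zinc, fell by 1.21 (SE 0.23, adjusted p 0.0170), and SLC39A3, a zinc importer, by 0.38 (SE 0.096, adjusted p 0.0429). With a library left out, SLC39A3 passed only without the third sh-LINC01977 library, at 0.0482. SLC39A14 did not pass without the first or second sh-LINC01977 or the first sh-NC library, at up to 0.0849, nor SLC30A10 without the second or the third sh-LINC01977 library, at 0.0620 and 0.0591. With library totals as the scaling, SLC39A14 was at 0.0528 and SLC39A3 at 0.0847, and by limma on log2(FPKM + 0.1) at 0.0650 and 0.0875.

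**Figure D4:**
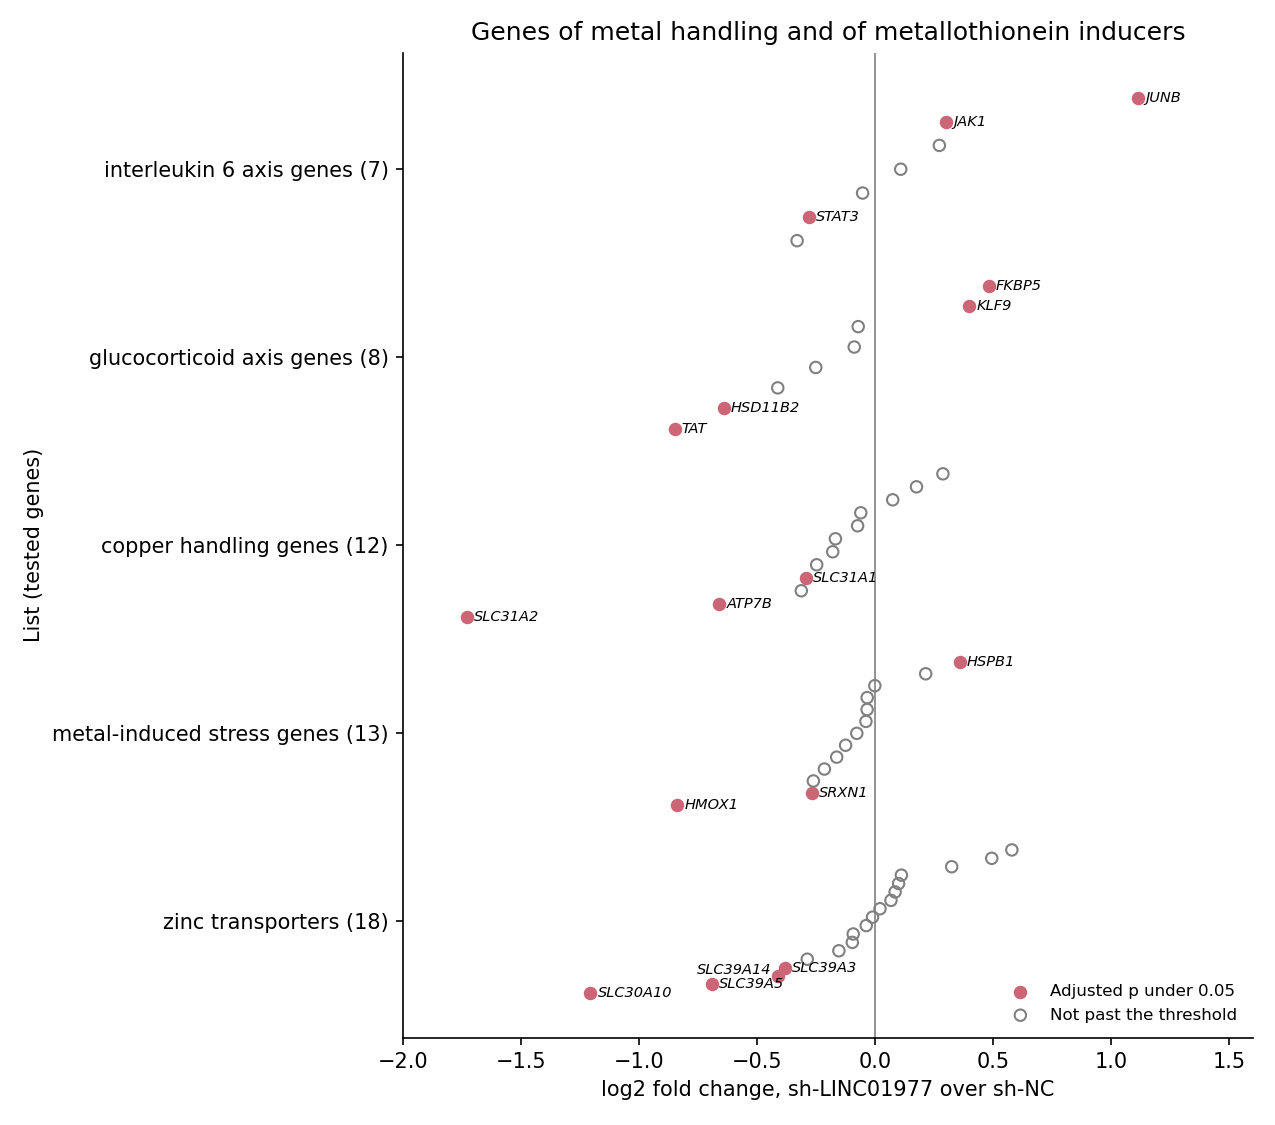
Each circle is a tested gene of a list, placed by its log2 fold change, sh-LINC01977 over sh-NC, with filled red circles for an adjusted p under 0.05 and the number tested in brackets. The zinc transporters and copper genes that passed lie below 0, from SLC31A2 at -1.73 to SLC31A1 at -0.29.

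Copper, the other metal that metallothioneins hold in liver, gave 3 genes that fell and 0 that rose among 12 tested, 25% against the same 15.1%, with a median log2 change of -0.17. ATP7B, the copper exporter of hepatocytes, stood at 77.4, 80.0 and 78.3 CPM in sh-NC and at 50.1, 48.8 and 50.2 CPM in sh-LINC01977, a fall by 0.66 on the log2 scale (SE 0.049, adjusted p 0.000976). The libraries of a group were close together and the groups far apart. SLC31A2, a copper transporter of endosomes and lysosomes, stood at 4.15, 5.25 and 5.88 CPM and at 1.82, 1.36 and 1.42 CPM, and fell by 1.73 (SE 0.21, adjusted p 0.00352). SLC31A1, the main copper importer, fell by 0.29 (SE 0.046, adjusted p 0.00866). These 3 genes passed in every fit that left out a library. Hepatocyte markers fell in the same comparison (7 of 9, against 8.07% of all tested genes), and their part in the values of ATP7B, SLC39A5 and TAT, which hepatocytes express, was not tested.

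Among 13 stress genes that metals induce, 2 fell and 1 rose, 23.1% against the same 15.1%, with a median log2 change of -0.08. HMOX1, the haem oxygenase that cadmium and oxidants induce, stood at 71.9, 71.5 and 70.1 CPM in sh-NC and at 41.7, 38.2 and 39.5 CPM in sh-LINC01977, and fell by 0.84 (SE 0.056, adjusted p 0.000692). SRXN1, which repairs oxidized peroxiredoxins, fell by 0.27 (SE 0.045, adjusted p 0.0110). HSPB1, a small heat shock protein, rose from 124.4, 111.1 and 124.7 CPM to 162.3, 155.0 and 145.0 CPM, by 0.36 (SE 0.068, adjusted p 0.0164), but did not pass without the first or the second sh-LINC01977 library, at up to 0.0567. The list thus held changes in both directions.

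Glucocorticoids induce metallothioneins in liver. Of 8 tested genes of the glucocorticoid axis, 2 rose and 2 fell, 50% against 15.1% of all tested genes, with a median log2 change of -0.17. FKBP5, a co-chaperone and target of the glucocorticoid receptor, stood at 61.5, 51.3 and 62.0 CPM in sh-NC and at 81.2, 81.6 and 81.2 CPM in sh-LINC01977, and rose by 0.48 (SE 0.082, adjusted p 0.0116). TAT, the hepatocyte enzyme that degrades tyrosine and a classical glucocorticoid target, stood at 5.84, 5.61 and 5.74 CPM and at 2.80, 3.15 and 3.59 CPM, and fell by 0.85 (SE 0.15, adjusted p 0.0119). KLF9, a transcription factor that glucocorticoids induce, rose by 0.40 (SE 0.080, adjusted p 0.0201), and HSD11B2, which inactivates cortisol, fell by 0.64 (SE 0.12, adjusted p 0.0179). Each of the last 2 failed the threshold in 4 of the 6 fits that left out a library, KLF9 without either of the first 2 libraries of each group at up to 0.0727, and HSD11B2 without the second or the third library of either group at up to 0.0576.

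Of 7 tested genes of the interleukin 6 axis 2 rose and 1 fell, 42.9% against 15.1% of all tested genes, with a median log2 change of 0.11. JUNB, an AP-1 subunit that cytokines induce early, stood at 7.16, 6.34 and 5.83 CPM in sh-NC and at 15.0, 13.7 and 13.2 CPM in sh-LINC01977, and rose by 1.11 (SE 0.12, adjusted p 0.00231). JAK1, the kinase of the receptor, rose by 0.30 (SE 0.049, adjusted p 0.00973), while STAT3, the transcription factor downstream, fell by 0.28 (SE 0.051, adjusted p 0.0144). STAT3 did not pass without the first or the second sh-LINC01977 library, at up to 0.0525, nor with library totals as the scaling (0.0514) or by limma on log2(FPKM + 0.1) (0.0663). This list, too, held changes in both directions.

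The genes around the cluster were read to see whether the difference extended along the chromosome. Within 500 kb of either end 18 other genes were examined and 8 tested, of which 1 rose and 1 fell, 25% against 15.1%, with a median log2 change of -0.07. On the MT2A side OGFOD1, a hydroxylase of ribosomal protein, stood at 109.7, 119.7 and 118.8 CPM in sh-NC and at 90.6, 96.95 and 98.97 CPM in sh-LINC01977, and fell by 0.28 (SE 0.060, adjusted p 0.0242) at a distance of 129.1 kb. On the MT1X side NUP93, a nuclear pore protein 45.9 kb away, stood at 119.0, 111.3 and 111.3 CPM and at 130.2, 132.2 and 136.8 CPM, and rose by 0.22 (SE 0.050, adjusted p 0.0283). Both passed in only 1 of the 6 fits that left out a library, the one without the first sh-NC library, and reached 0.0744 and 0.0899 in the others. OGFOD1 was at 0.0710 with library totals as the scaling. The tested neighbours that did not pass were BBS2 at 0.11, NUDT21 at 0.05, FAM192A at 0.04, HERPUD1 at -0.19, CPNE2 at -0.21 and AC012181.3 at -0.70 with a standard error of 0.49, all as log2 changes.

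**Figure D5:**
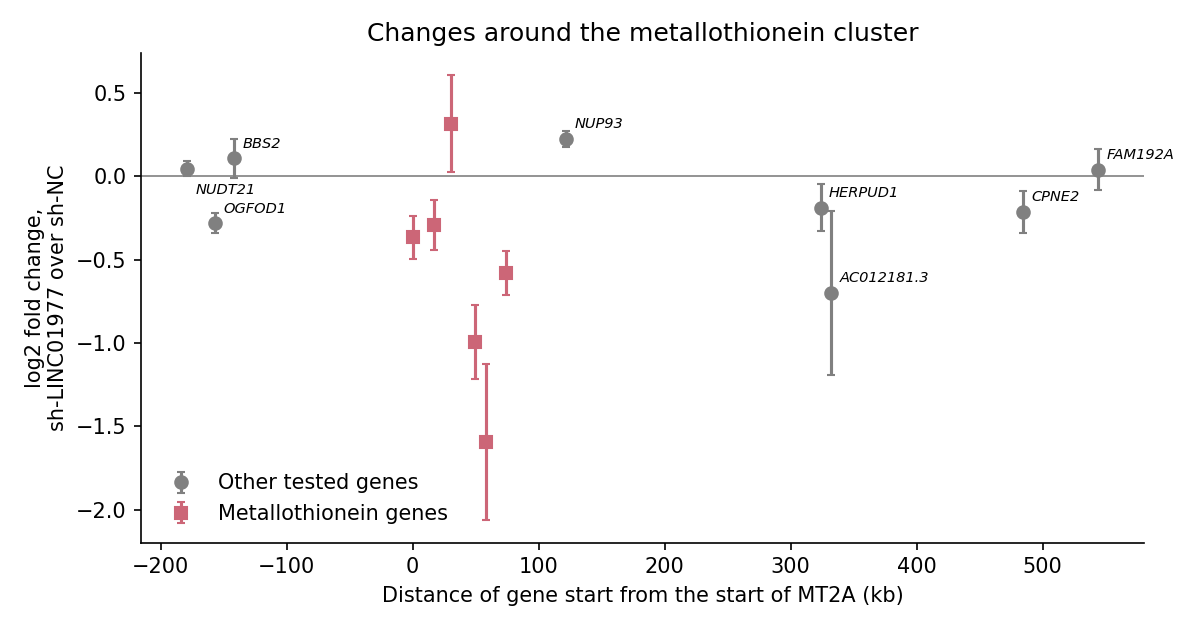
Log2 fold changes, sh-LINC01977 over sh-NC, are plotted against the distance of the gene start from that of MT2A in kb, with bars of 1 standard error, red squares for metallothionein genes and grey circles for the tested neighbours examined. BBS2 at 0.11 and NUP93 at 0.22, the nearest tested genes on either side, lie above 0, as do NUDT21 and FAM192A. The tested neighbours OGFOD1, HERPUD1, CPNE2 and AC012181.3 lie below 0. Of the 6 metallothionein genes, selected on this contrast, 5 lie below.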

How the data were processed

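The authors extracted RNA from HepG2 cells with TRIzol and had it sequenced on an Illumina HiSeq instrument. The submitters' processing notes name bcl2fastq 2.0, HISAT2, StringTie, DESeq2, limma and the build hg38, and the counting settings are not given in the sources used here. The authors deposited raw counts per gene, with no scaling. Beside them, the authors deposited FPKM, scaled to the length of the transcripts and to library size. Members and gene lists were chosen with earlier results of these data known.

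Counts of 13452 genes (mean FPKM over 6 libraries at least 0.5) were scaled by TMM and fitted by the quasi-likelihood method of edgeR 4.0.16 under R 4.3.3, with no covariate, adjusted by Benjamini-Hochberg and called at an adjusted p under 0.05. CPM are counts over the TMM-scaled library size. Standard errors of the edgeR changes were derived from the test, as the absolute log2 change over the square root of its F statistic. Genes below the filter were read from a fit of all genes. The fit was tested on simulated data in which 200 genes changed and every gene had the same spread beyond counting error. That test does not cover genes with a wider spread, such as MT1G. Totals of 49929024 to 60441515 counts leave genes with few counts imprecise. A count of 0 was read as up to 3, and intervals or floors cover counting error only. Named genes were the members, list genes that passed with MTF1 and SLC30A1, the tested neighbours within 500 kb, LINC01977 and the 5 genes most like the summed members. Named cell type markers, SLC39A1 and SOCS3 were picked after their values were seen. A gene near the cluster is not reported here. SCO2, with 2 identifiers, was left out of the copper list. Alternatives were DESeq2 1.42.0, limma 3.58.1 on log2(FPKM + 0.1) and log2(FPKM + 1), other scalings and filters, a replicate block and leaving out each library. Coding sequences and coordinates came from GENCODE 29, whose intervals for the members match the table.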

Additional observations from a re-analysis of the deposited data

How the results depend on the processing

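The log2 change of the summed metallothionein CPM, or of summed FPKM for limma, kept its direction under all 14 alternatives, from -0.47 to -0.29. As a difference of group means of log2 sums, it depends only on the scaling and the libraries used. The replicate block could not move it, and DESeq2 and its size factors in edgeR share their scaling. The number of metallothionein genes past an adjusted p of 0.05 as lower was 2 by edgeR and 4 by DESeq2. It was 1 when genes under a mean FPKM of 1, MT1F and MT1G among them, were removed. Without a filter it was 0, and with a library left out 0 to 2. These counts, too, are a description and no test. Same-numbered libraries of the groups did not deviate together (correlations of -0.034, 0.00506 and 0.0613). Such values cannot exclude that libraries of the same number were prepared together, which the labels do not say. With the replicate block 0 metallothionein genes and 1 neighbour passed, and KLF9, HSD11B2 and NUP93 did not pass. SLC39A3, SLC39A14, STAT3 and OGFOD1 did not pass with library totals or by limma at either pseudocount, nor SLC39A3, KLF9 and NUP93 without a filter. Over all tested genes, 948 were higher and 1085 lower, against 1455 and 768 with library totals, 1269 and 729 by limma on log2(FPKM + 0.1), 1285 and 734 on log2(FPKM + 1), and 549 to 669 higher and 627 to 738 lower with a library left out. At the study's thresholds 209 were higher and 141 lower, against 59 and 41 by limma on log2(FPKM + 1), 732 and 351 without a filter, and 125 higher with the filter at 1. List genes that passed numbered 17, and 11 to 17 with a library left out. Neighbours that passed numbered 2, against 1 with library totals, 1 by limma at either pseudocount, 1 without a filter and 0 to 2 with a library left out.

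By limma on log2(FPKM + 1) the log2 differences shrank to -0.33 for MT1F, -0.69 for MT1G and -0.37 for MT1X, since the pseudocount exceeds or nears these levels. Values near 0 changed sign. MTF1 was 0.0641 with library totals, 0.0612 and 0.0446 by limma with 0.1 and 1 added, 0.00675 with the filter at 1, and -0.0449 to 0.0602 with a library left out. FAM192A was -0.0856 to 0.141 with a library left out. The cause of these shifts was not tested. MT1A, MT1F and MT1G rest on 16 to 103 counts per library, so their values carry more counting error than those of MT2A and MT1E.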

Other observations

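Values of SLC39A1, a tested zinc transporter, and of SOCS3, an untested gene of the interleukin 6 axis, are added here. SLC39A1, a zinc importer of the plasma membrane, stood at 44.8, 152.7 and 46.5 CPM in sh-NC and at 49.4, 152.6 and 162.6 CPM in sh-LINC01977, so its libraries fell into a low and a high level that the groups did not divide. By edgeR its log2 change was 0.58 (SE 0.62, adjusted p 0.574). SOCS3, the feedback inhibitor of interleukin 6 signaling, lay below the filter, with counts of 48, 18 and 19 in sh-NC and 106, 111 and 128 in sh-LINC01977. Its log2 change in the fit of all genes was 1.97 with a standard error of 0.42.

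The genes whose log2 CPM over the 6 libraries was most like that of the summed metallothioneins were FAM83G, MOGAT3, USP24, PCBD1 and TET1, with Pearson correlations of 0.998, 0.995, 0.995, 0.994 and 0.993 as a description. Of the 11565 genes whose mean FPKM was 1 or more, 2.15% had a correlation over 0.9, and the points share the scaling and depth of 6 libraries. FAM83G stood at 62.1, 67.5 and 54.3 CPM in sh-NC and at 53.0, 46.5 and 41.7 CPM in sh-LINC01977, where the order of the libraries was that of the metallothionein sum.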
